A study of Homo sapiens with 4 samples.

Results

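The dual-specificity MAP kinase phosphatases were read out as the 10 genes DUSP1, DUSP3, DUSP4, DUSP5, DUSP6, DUSP7, DUSP8, DUSP10, DUSP14 and DUSP16, chosen by gene symbol among the 34608 genes of the deposited count files. Their 28 transcripts were among 119207 transcript sequences. RNA was sequenced from A549, a human cell line from a lung adenocarcinoma. The dex group received 100 nM dexamethasone, a synthetic glucocorticoid, and the etoh group received 0.02% ethanol, the vehicle, both for 3 h. Each group had 2 libraries, and no other agent was given to either group in the labels. Setting dex against etoh addresses which of these phosphatase genes respond to the hormone within 3 h.

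These enzymes remove phosphate from both the threonine and the tyrosine of the activation loop of a MAP kinase and thereby switch it off. Most of them pair a catalytic domain with a kinase-binding domain that sets which of ERK, JNK and p38 they bind, and several are themselves transcribed in response to MAP kinase activity, which closes a negative feedback loop. DUSP1 is long known as a glucocorticoid-induced gene that restrains p38 and JNK in inflamed cells and airway epithelium. The nuclear inducible members are DUSP1, DUSP4 and DUSP5, the cytoplasmic members selective for ERK are DUSP6 and DUSP7, and the members that prefer JNK and p38 are DUSP8, DUSP10 and DUSP16. DUSP3 and DUSP14 are small atypical enzymes without the kinase-binding domain.

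The promoter of DUSP1 is shown because it belongs to the member that rose. No promoter of DUSP4, the member that fell, or of DUSP5 was in the promoter set used, so DUSP1 cannot be compared with them here. It covers 250 bases before and 50 after the RefSeq start, on the minus strand of GRCh38.p14 at chr5:172771146-172771445, and the capitals mark TGACG on either strand, the core of the cAMP response element, and TATAAA, the TATA box.
DUSP1 promoter: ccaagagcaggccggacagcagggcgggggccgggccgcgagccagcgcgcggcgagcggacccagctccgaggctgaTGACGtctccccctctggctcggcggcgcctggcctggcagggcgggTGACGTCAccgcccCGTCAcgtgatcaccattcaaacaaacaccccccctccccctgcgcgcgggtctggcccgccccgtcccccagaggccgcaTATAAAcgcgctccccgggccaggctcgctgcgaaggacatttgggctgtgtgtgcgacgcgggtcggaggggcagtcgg
The promoter held 4 copies of TGACG, 2 of which overlap to form its 1 full TGACGTCA element, and 1 TATAAA. Of 35116 RefSeq promoters of the same length, 24.6% held TGACG, 1.85% TGACGTCA and 11.5% TATAAA on either strand. Besides DUSP1, the promoter of DUSP8 also held TGACGTCA, in 2 copies, and those of DUSP3, DUSP6, DUSP7, DUSP10, DUSP14 and DUSP16 held none. No promoter of these 8 genes held AGAACA, one arm of the palindromic glucocorticoid response element, which was in 14.8% of all promoters. Both strands were searched for every motif. These matches are descriptions of 300 bases and say nothing of more distant sites.

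The 3' UTRs are described because AU-rich elements built on ATTTA mark mRNAs for rapid decay, and DUSP1 is a textbook example of such an mRNA. The DUSP1 3' UTR of 672 bases held 4 ATTTA pentamers, or 5.95 per kb, and 2 copies of the nonamer TTATTTATT. Over 11980 tested genes with a matched 3' UTR the median density was 1.59 per kb, and 7.92% held the nonamer. DUSP4 had 1.51 pentamers per kb and 1 nonamer in 3962 bases, DUSP8 had 1.62 per kb and 1 nonamer, and DUSP10 had 3.04 per kb and no nonamer. DUSP5 and DUSP7 had no ATTTA. The first nonamers of the DUSP1 and DUSP8 3' UTRs are printed with 10 bases on each side and the nonamer in capitals, from GENCODE 29 transcripts on chromosomes 5 and 11.
DUSP1 3' UTR site: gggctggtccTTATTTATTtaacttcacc
DUSP8 3' UTR site: tttcgattttTTATTTATTtaagctgttc

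The libraries held 9764159 to 11887526 aligned reads. Levels in CPM are reads summed over all transcripts of a gene and scaled to the aligned total of the library. Means carry the SD over n = 2 libraries, and each log2 fold change sets dex against etoh and carries a standard error (SE). Separate cultures are not stated in the labels for the libraries of a group, and the p-values therefore reflect only how these libraries vary, which may be technical. Of the epithelial markers, the keratin genes KRT8 and KRT18 lay at 1660 CPM or more in every library, CDH1 between 32.6 and 37.3 CPM, KRT19 between 14.0 and 15.3 CPM and EPCAM between 8.34 and 11.3 CPM. KRT8 rose, with 3805 and 3167 CPM in the dex libraries, against 1660 and 1795 CPM in the etoh libraries (adjusted p = 3.6e-07 by edgeR), and so did KRT18 (adjusted p = 1.6e-04 by edgeR); their part in the results was not tested. The alveolar markers SFTPA1, SFTPB, SFTPC and NKX2-1 lay between 0 and 0.410 CPM. PTPRC and CD3E of leukocytes lay between 0 and 0.102 CPM and CD14 between 1.64 and 2.95 CPM. VWF and CDH5 of endothelium lay at or below 0.509 CPM, COL1A2 and PDGFRB of fibroblasts at or below 0.252 CPM, and COL1A1 between 10.4 and 21.3 CPM. All 5 glucocorticoid-induced reference genes rose, among them FKBP5 by 3.38 (SE 0.11) and TSC22D3 by 4.45 (SE 0.13) on the log2 scale. RNA came from bulk cultures, so a change in a few cells and a smaller change in all cells cannot be told apart.

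Of the 10 phosphatase genes, 9 had enough reads to be tested and 2 passed the threshold, an adjusted p of 0.05 by edgeR (quasi-likelihood test, Benjamini-Hochberg adjustment over all 14777 tested genes). DUSP1 rose 2.70-fold and DUSP4 fell, being 3.17-fold lower in dex. Over all tested genes, 11.4% passed, 6.98% higher and 4.42% lower. The median log2 fold change was -0.05 over the 9 tested members and -0.003 over all tested genes. By p-value DUSP4 ranked 41 and DUSP1 ranked 61 among all tested genes. The libraries of the groups did not overlap for 6 of the 9 tested members, against 53.3% of all tested genes, nor for DUSP8, which was not tested.

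**Figure D1:**
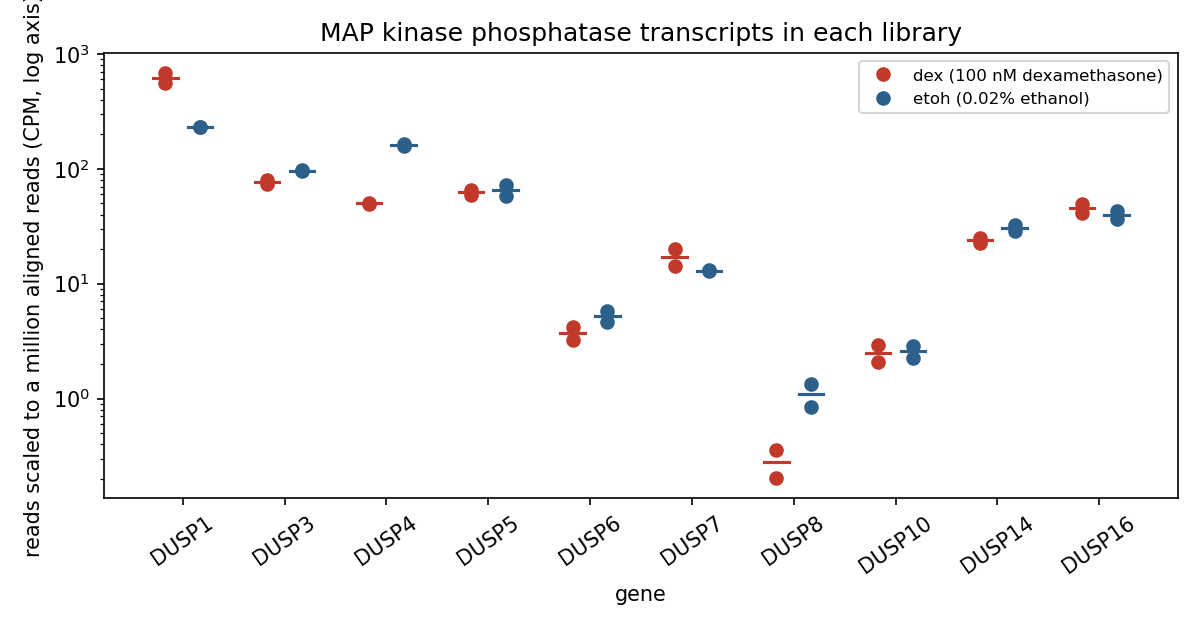
Reads scaled to the aligned total (CPM, log axis) of each of the 10 phosphatase genes, with 1 point per library, a bar at the mean of the 2 libraries, and dex left of etoh. DUSP1 lies above 554 CPM in dex and near 231 CPM in etoh, DUSP4 at or below 50.5 CPM in dex and 157 CPM or more in etoh, and DUSP5, DUSP10 and DUSP16 overlap between the groups.

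Among the nuclear inducible members, DUSP1, which dephosphorylates p38, JNK and ERK, had 554 and 679 CPM in the dex libraries, against 232 and 230 CPM in the etoh libraries. The etoh libraries were nearly equal, the dex libraries were spread more widely, with an SD of 88.5 CPM, and both lay far above etoh. Its log2 fold change was 1.43 (SE 0.10, 95% interval 1.22 to 1.65, adjusted p = 1.2e-09 by edgeR). DUSP1 lies on chromosome 5 from 172768090 to 172771195 on the minus strand of GRCh38, and the antisense gene in its locus had 2 reads over the 4 libraries. Its single counted transcript had no 36-base window in common with another GENCODE 29 gene.

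DUSP4, a nuclear phosphatase of ERK and JNK that is induced by ERK activity, had 49.4 and 50.5 CPM in the dex libraries, against 164 and 157 CPM in the etoh libraries. Both groups were tight, and they lay far apart. Its log2 fold change was -1.67 (SE 0.11, 95% interval -1.89 to -1.44, adjusted p = 1.4e-10 by edgeR). The gene lies on chromosome 8 from 29333064 to 29350668 on the minus strand of GRCh38, with no overlapping gene in GENCODE 29.

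DUSP5, a nuclear phosphatase selective for ERK, lies on chromosome 10 from 110497838 to 110511544 on the plus strand. It had 64.9 and 59.6 CPM in the dex libraries, against 58.1 and 72.3 CPM in the etoh libraries. The groups overlapped, and the log2 fold change was -0.05 (SE 0.12), with a 95% interval of -0.30 to 0.19 (adjusted p = 0.85 by edgeR). The 3 nuclear inducible members thus took 3 courses in the same cells, with one higher, one lower and one without a detectable difference.

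The cytoplasmic ERK phosphatases were far less abundant. DUSP6, the classical feedback inhibitor of ERK, had 3.26 and 4.22 CPM in the dex libraries, against 5.74 and 4.63 CPM in the etoh libraries. The dex libraries lay just below the etoh libraries without overlap. DUSP6 lies on chromosome 12 from 89347232 to 89353271. The log2 fold change of DUSP6 was -0.44 (SE 0.26, 95% interval -0.98 to 0.11, adjusted p = 0.34 by edgeR), with 32 to 56 reads per library. What size of change could be detected at that depth was not tested. Leaving out a library moved the log2 fold change between -0.63, without dex replicate 2, and -0.27, without etoh replicate 1. The antisense gene AC024909.2 overlaps exons of DUSP6 in GENCODE 29, 36.6% of the 36-base windows of DUSP6-001 match it on either strand, and it was not counted in the files. Without a stated strandedness, reads of the pair cannot be told apart. DUSP7, a close relative of DUSP6, had 14.2 and 20.02 CPM in the dex libraries, against 12.8 and 13.1 CPM in the etoh libraries. Dex replicate 2 stood above the other 3 libraries. DUSP7 lies on chromosome 3 from 52048919 to 52056550. The log2 fold change of DUSP7 was 0.42 (SE 0.17, 95% interval 0.06 to 0.79, adjusted p = 0.13 by edgeR). It was 0.64 without dex replicate 1 and 0.16 without dex replicate 2, in fits that keep a single dex library. DUSP7 did not pass in any alternative that kept all 4 libraries.

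**Figure D2:**
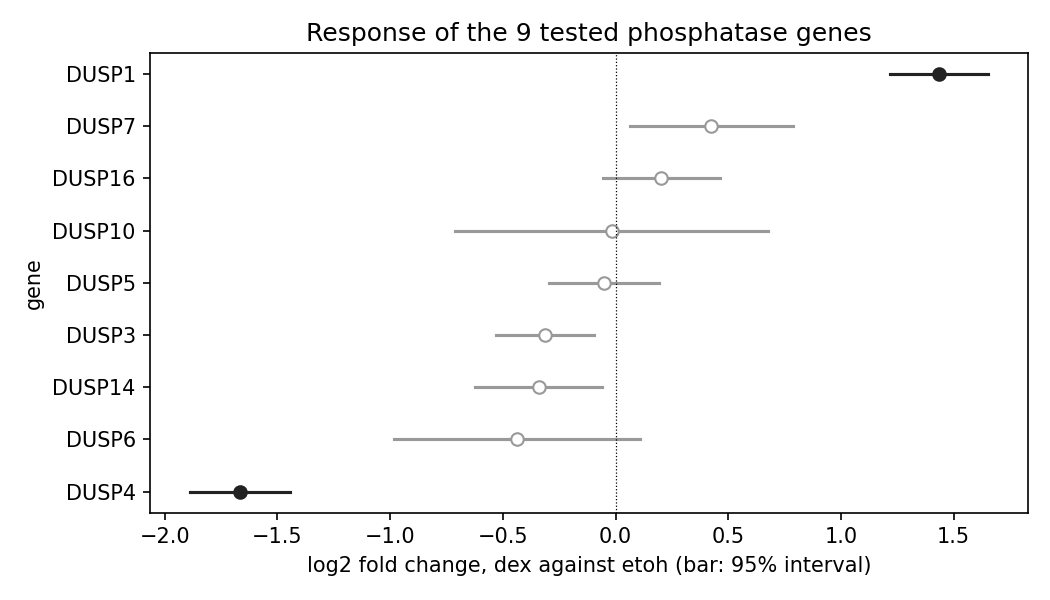
Log2 fold change, dex against etoh, of the 9 tested phosphatase genes, with bars for the 95% interval from the edgeR fit, filled black points for genes past an adjusted p of 0.05 and open grey points for the others. DUSP1 at 1.43 and DUSP4 at -1.67 stand apart from the other 7 genes, which lie between -0.44 and 0.42.

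Of the members that prefer JNK and p38, DUSP16, on chromosome 12 from 12474210 to 12562383, was the most abundant. It had 49.0 and 41.5 CPM in the dex libraries, against 36.7 and 42.7 CPM in the etoh libraries, which overlapped. Its log2 fold change was 0.20 (SE 0.12, 95% interval -0.06 to 0.46, adjusted p = 0.35 by edgeR). That value was 0.076 without dex replicate 1, 0.33 without dex replicate 2, 0.11 without etoh replicate 1 and 0.31 without etoh replicate 2, and did not pass in any of these. DUSP10, on chromosome 1 from 221701424 to 221742176, had 2.95 and 2.06 CPM in the dex libraries, against 2.87 and 2.27 CPM in the etoh libraries. These also overlapped, and with 23 to 29 reads per library the 95% interval of its log2 fold change of -0.02 (SE 0.33) reached from -0.71 to 0.68.

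DUSP8, a phosphatase of JNK and p38 best known from brain and heart, lies on chromosome 11 from 1554044 to 1571920. It had 2 and 4 reads in the dex libraries, against 13 and 10 reads in the etoh libraries. Both dex libraries lay below both etoh libraries, at 0.203 and 0.359 CPM against 1.33 and 0.841 CPM. With so few reads it did not enter the test. The ratio of its summed reads, 6 in dex and 23 in etoh, was 0.273 after scaling, with a 95% exact conditional interval of 0.0909 to 0.689 that covers counting error only. Without a count filter its log2 fold change was -1.84 (adjusted p = 0.081 by edgeR, in a range of 0.081 to 0.42 over the 4 alternatives that could test it). Of the 36-base windows of its main transcript, 5.13% were also in the DUSP8 pseudogenes DUSP8P3, DUSP8P4 and DUSP8P5.

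The atypical members both had lower levels in dex that did not pass. DUSP3, which acts on ERK and JNK without a kinase-binding domain, lies on chromosome 17 from 43766121 to 43778988. It had 74.2 and 79.2 CPM in the dex libraries, against 95.04 and 97.7 CPM in the etoh libraries. The groups did not overlap, and the log2 fold change was -0.31 (SE 0.10, 95% interval -0.53 to -0.10, adjusted p = 0.058 by edgeR). Scaled to aligned library totals, DUSP3 passed at -0.33 (adjusted p = 0.042 by edgeR), and with upper-quartile factors it passed at -0.33 (adjusted p = 0.043 by edgeR), in a range of 0.042 to 0.33 over 14 alternatives. DUSP14, on chromosome 17 from 37489831 to 37513501, had 25.1 and 22.6 CPM in the dex libraries, against 32.3 and 29.02 CPM in the etoh libraries. These did not overlap either, and its log2 fold change was -0.34 (SE 0.14, 95% interval -0.62 to -0.06, adjusted p = 0.12 by edgeR).

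The opposite courses of DUSP1 and DUSP4 changed the make-up of the family's reads. The shares and sums are not corrected for transcript length, so they are not shares of molecules. DUSP4-001 has 5537 bases and DUSP1-001 has 2019 bases. DUSP1 held 66.2% and 70.8% of the reads of the 10 genes in the dex libraries, against 36.2% and 35.4% in the etoh libraries. DUSP4 held 5.90% and 5.26% in the dex libraries, against 25.6% and 24.1% in the etoh libraries. The 10 genes together had 838 and 959 CPM in the dex libraries, against 641 and 650 CPM in the etoh libraries. Without DUSP1, the other 9 had 283 and 280 CPM in the dex libraries, against 409 and 420 CPM in the etoh libraries. The summed level was therefore higher in dex with DUSP1 counted and lower without it, in both libraries of each group. Of the sum without DUSP1, DUSP4 alone gave 49.4 and 50.5 CPM in the dex libraries, against 164 and 157 CPM in the etoh libraries. The lower sum is thus not a fall shared evenly by the other genes.

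**Figure D3:**
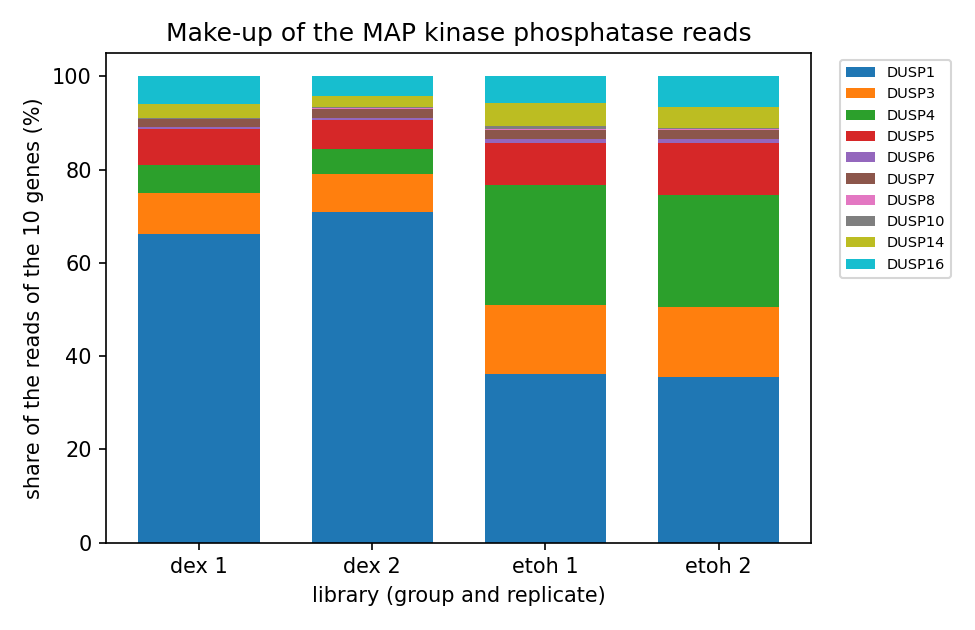
Share of the summed reads of the 10 phosphatase genes held by each gene, in percent, stacked for each library with the dex libraries on the left. DUSP1 fills 66.2% and 70.8% of the dex bars and 36.2% and 35.4% of the etoh bars, and the DUSP4 block is the one that shrinks most in dex.

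Levels between genes were compared per length, as CPM per kb of transcript, summed over the transcripts of a gene. In dex the order of levels was DUSP1, DUSP3, DUSP5, DUSP16, DUSP14, DUSP4, DUSP7, DUSP6, DUSP10 and DUSP8. In etoh it was DUSP1, DUSP3, DUSP4, DUSP5, DUSP14, DUSP16, DUSP7, DUSP6, DUSP10 and DUSP8. No neighbours in either order had overlapping libraries by this measure. The order also depends on which transcripts are counted, since reads placed on a short transcript weigh more per kb. DUSP3-004 has 1019 bases and DUSP3-001 has 4110 bases. Of their windows, 93.6% and 97.6% were also in another transcript of DUSP3. Levels by a single transcript length per gene were not tested. The places in these orders, among them those of DUSP3 and DUSP4, therefore hold for this measure only. DUSP1 led with 305 ± 43.8 per kb in dex and 114 ± 0.505 per kb in etoh, and the next gene, DUSP3, had 29.01 ± 0.799 per kb in dex and 37.6 ± 1.12 per kb in etoh (SD, n = 2). DUSP4 had the rank 6 in dex and the rank 3 in etoh, with 10.3 ± 0.0461 per kb in dex and 32.6 ± 0.909 per kb in etoh. At the low end DUSP8 had 0.0628 ± 0.0246 per kb in dex and 0.243 ± 0.0776 per kb in etoh.

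Counts per transcript gave the same 2 genes. Of the 28 transcripts, 20 were tested, and 1 was higher and 2 were lower at an adjusted p of 0.05 by edgeR over 49857 transcripts, of which 5.64% passed, 3.57% higher and 2.07% lower. Without dex replicate 1, DUSP7-001 was also higher at 0.82, and without etoh replicate 2, DUSP3-004 was also lower at -0.71. DUSP1 had 1 transcript in the files, DUSP1-001. For DUSP4, the long form DUSP4-001 had 400 and 482 reads in the dex libraries, against 1376 and 1589 reads in the etoh libraries, and fell by 1.70 on the log2 scale (SE 0.12). DUSP4-002, whose coding sequence is 912 instead of 1185 bases, had 86 and 80 reads in the dex libraries, against 226 and 276 reads in the etoh libraries, and fell by 1.53 (SE 0.16). DUSP4-001 held 82.3% and 85.8% of the gene's reads in the dex libraries, against 85.9% and 85.2% in the etoh libraries. Both forms were lower in dex, and their shares of the DUSP4 reads overlapped between the groups.

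The aligner placed reads shared by transcripts of a gene, and no shift between forms was tested. The windows of DUSP4-001 shared with DUSP4-002 made up 21.9% of it. The 3 transcripts of DUSP14 had nearly equal shares in every library, between 31.0% and 35.2%. DUSP16-201, a short form with a coding sequence of 432 bases, had 90 and 104 reads in the dex libraries, against 57 and 78 reads in the etoh libraries. Its log2 fold change was 0.58 (SE 0.19, adjusted p = 0.076 by edgeR), beside 0.14 (SE 0.14) for the main form DUSP16-001. DUSP3-004, a fragment with a coding sequence of 338 bases, had a log2 fold change of -0.54 (SE 0.17, adjusted p = 0.073 by edgeR), and the other 4 transcripts of DUSP3 lay between -0.30 and -0.16.

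**Figure D4:**
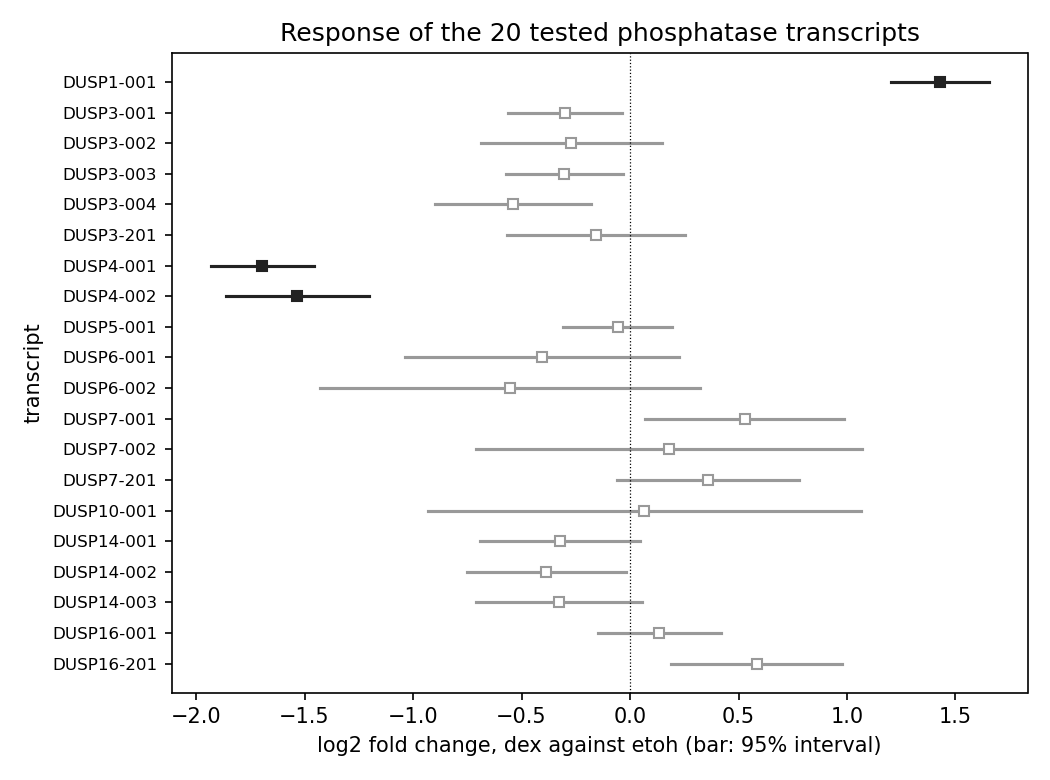
Log2 fold change, dex against etoh, of the 20 tested transcripts of the phosphatase genes, with bars for the 95% interval, filled black squares for transcripts past an adjusted p of 0.05 and open grey squares for the others. DUSP1-001 at 1.43 is the one filled square above 0, and DUSP4-001 at -1.70 and DUSP4-002 at -1.53 are the filled squares below 0.

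The genes with the most similar pattern over the 4 libraries were found by the distance between log2 CPM values centred on each gene's mean, among 12975 other genes with at least 2 CPM on average. For DUSP1 these were FAM47E (ENSG00000272414.1, distance 0.067), the desmosomal protein gene PKP2 (distance 0.095) and the adhesion receptor gene GPR115 (distance 0.11), with log2 fold changes of 1.42, 1.44 and 1.37. For DUSP4 they were IFFO2 (distance 0.099), the arrestin-domain gene ARRDC3 (distance 0.15) and TGFB2, a ligand of the TGF-beta family (distance 0.16), with log2 fold changes of -1.72, -1.80 and -1.71. The identifier listed as FAM47E has the current name FAM47E-STBD1. These distances describe 4 libraries in 2 groups and were not tested.

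Of 16 other genes named as dual-specificity phosphatases or their relatives, 10 were tested and 0 passed by edgeR, DESeq2 or limma-voom. By edgeR, 1 had an unadjusted p below 0.05. Their median log2 fold change was 0.01. Beside the counts of this list and the lists below, 11.4% of all tested genes passed, 6.98% higher and 4.42% lower. The most abundant were STYX, a catalytically dead relative, at 47.2 ± 2.17 CPM in dex and 48.7 ± 3.10 CPM in etoh, and the RNA phosphatase gene DUSP11 at 27.6 ± 4.71 CPM in dex and 33.5 ± 2.08 CPM in etoh. DUSP22, named here after its values were seen, had 17.6 ± 1.96 CPM in dex and 12.7 ± 2.29 CPM in etoh and did not pass (adjusted p = 0.070 by edgeR, with a log2 fold change of 0.48 and an SE of 0.17). Without dex replicate 1 it was higher at 0.59, without etoh replicate 2 at 0.68, and with its top transcript standing for the gene at 0.84. Of 8 other phosphatases of MAP kinases, 5 were tested and 1 rose. This was PPP2CB, a catalytic subunit of protein phosphatase 2A, with 427 ± 15.2 CPM in dex and 219 ± 22.9 CPM in etoh and a log2 fold change of 0.98 (SE 0.10, adjusted p = 1.8e-07 by edgeR).

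Of 14 MAP kinase genes, 10 were tested and 1 was higher, MAPK7, which encodes ERK5, with 24.4 ± 1.62 CPM in dex and 18.2 ± 0.941 CPM in etoh (adjusted p = 0.046 by edgeR, with a log2 fold change of 0.44 and an SE of 0.14). MAPK7 did not pass without any one of the 4 libraries, at 0.38 to 0.51, nor with DESeq2, library totals, upper-quartile factors, the top transcript or a replicate block, in a range of adjusted p from 0.044 to 0.22 over 14 alternatives. Of 7 MAP kinase kinases, 1 was higher, MAP2K2, an activator of ERK, with 241 ± 25.9 CPM in dex and 144 ± 46.5 CPM in etoh (adjusted p = 6.7e-04 by edgeR, with a log2 fold change of 0.76 and an SE of 0.14). It did not pass with DESeq2 (adjusted p = 0.20 by DESeq2) or with a robust dispersion fit (adjusted p = 0.13 by edgeR). Its log2 fold change was 0.48 without etoh replicate 1 and 1.12 without etoh replicate 2. MAPK11 and MAP2K3, also named after their values were seen, did not pass in the main test. MAPK11 was higher without a count filter (0.70), with the replicate block (0.73) and without etoh replicate 2 (1.24), and MAP2K3 was lower without etoh replicate 1 (-0.47).

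Of 16 genes downstream of ERK that serve as its feedback inhibitors or outputs, 14 were tested, 3 rose and 7 fell, with a median log2 fold change of -0.56. Over all tested genes, 6.98% were higher and 4.42% lower. ERRFI1, which blocks the epidermal growth factor receptor, had 460 ± 1.39 CPM in dex and 127 ± 3.87 CPM in etoh (log2 fold change 1.88, SE 0.10). PHLDA1 had 45.4 ± 2.73 CPM in dex and 108 ± 4.99 CPM in etoh, and fell by 1.23 (SE 0.11). IER3, an immediate-early gene, fell by 1.80 (SE 0.19), and ETV5, a transcription factor of the PEA3 group, fell by 0.89 (SE 0.12). The other called genes of this list were named after their values were seen. SPRY1 rose by 1.71 (SE 0.32), with 4.34 ± 0.0889 CPM in dex and 1.33 ± 0.142 CPM in etoh, and SPRED1 fell by 0.75 (SE 0.12). In the main test the log2 fold change was -1.04 (SE 0.25) for FOSL1 and -0.76 (SE 0.24) for SPRY4. It was 0.34 (SE 0.10) for CCND1 and -1.16 (SE 0.23) for ETV1. These calls were lost in some alternatives. FOSL1 was not called without dex replicate 2 (-0.77), without etoh replicate 2 (-0.83) or with DESeq2 (-1.04). SPRY4 was not called without dex replicate 1 (-0.58), without etoh replicate 1 (-0.54), or with DESeq2 or limma-voom. CCND1 was not called without dex replicate 2 (0.31), without etoh replicate 2 (0.28) or with the replicate block (0.34), and ETV1 was not called with its top transcript standing for the gene (-0.27). Called genes of this list went both ways, so DUSP1 or DUSP4 would match some of them in direction whichever way it changed. The list was chosen with earlier results of these data known, and a link to ERK activity was not tested.

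Of 10 outputs and scaffolds of JNK and p38, all were tested, 1 rose and 2 fell, with a median of 0.13. MAPKAPK2, the p38-activated kinase, had 102 ± 10.8 CPM in dex and 57.9 ± 4.44 CPM in etoh (log2 fold change 0.83, SE 0.11). JUN fell by 0.78 (SE 0.14). JUND fell by 0.68 (SE 0.20), a call that was lost with DESeq2, on leaving out dex replicate 1 (-0.65) and on leaving out etoh replicate 2 (-0.39). The scaffold gene MAPK8IP1, named after its values were seen, did not pass in the main test and was higher without a count filter (0.79), with its top transcript standing for the gene (1.22) and without etoh replicate 2 (1.19).

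**Figure D5:**
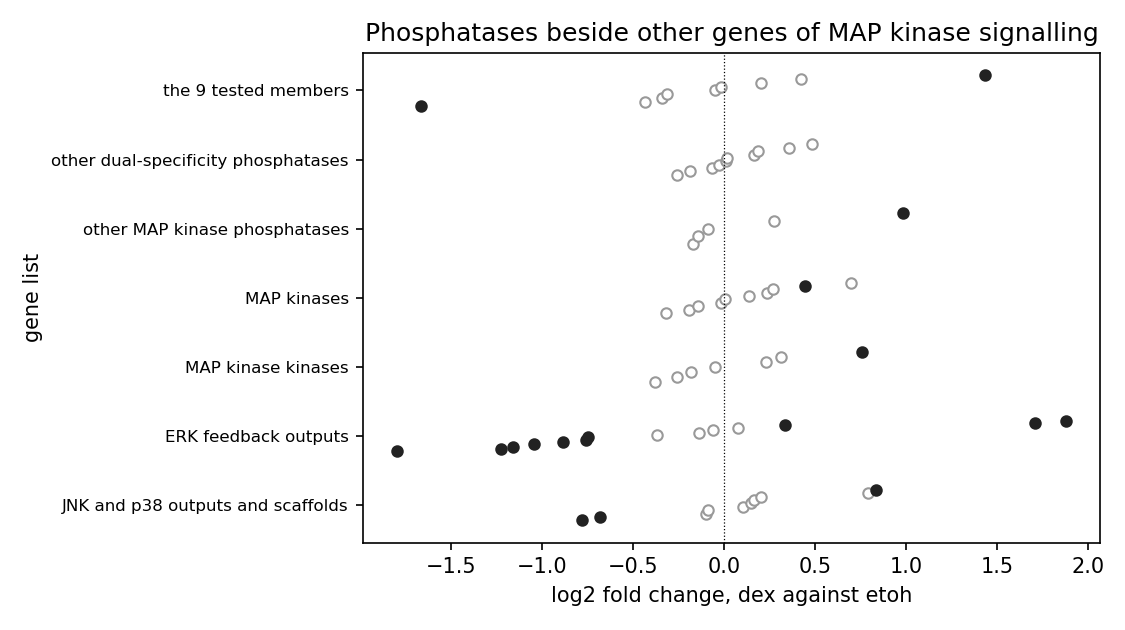
Log2 fold change, dex against etoh, of the 9 tested phosphatase genes (top row) and of the tested genes of 6 other lists of MAP kinase signalling, with 1 point per gene, filled black past an adjusted p of 0.05 and open grey otherwise. The list of ERK feedback outputs has 10 filled points, 3 above 0 and 7 below, and the other dual-specificity phosphatases have none.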

How the data were processed

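Each library has 1 deposited file of raw counts that lists aligned reads by transcript sequence, and a last row of unaligned reads. That row, 17.2% to 18.7% of all reads, was left out. The authors used Bowtie, SAMtools, CASAVA and DESeq2, per the submitters' processing notes. Tool versions, roles, annotation, genome build and strandedness remain not given in the sources used here.

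Reads were summed over the transcripts of a gene identifier. Dex was compared with etoh in edgeR 4.0.16 (R 4.3.3) by the quasi-likelihood test on all 4 libraries, two-sided, with TMM factors of 0.988 to 1.016 on the aligned totals, filterByExpr at a minimum count of 10, a prior count of 0.125 and Benjamini-Hochberg adjustment over all tested genes. SE is the absolute log2 fold change divided by the square root of F. Transcripts were fitted the same way. Alternatives used DESeq2 1.42.0, limma-voom (limma 3.58.1), other scalings and filters, and removal of each library. Removal left a single library in its group, so the spread in those fits came from the other group alone. The ranges of adjusted p over alternatives include such fits, whose p-values are not comparable with those of the main test. The code was tested on simulated data.

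The members and lists were chosen with earlier results of these data known. The genes named are all members, up to 4 called genes with the smallest p-values per list (or the 2 most abundant where none passed), and the 3 most similar genes of DUSP1 and DUSP4. Named outside that rule, after their values were seen, are DUSP22, MAPK11, MAP2K3, MAPK8IP1, FOSL1, SPRY4, CCND1 and ETV1, whose calls changed under an alternative. SPRY1 and SPRED1 were also named after their values were seen, to complete the called genes of their list. Positions and transcript sequences came from GENCODE 29 on GRCh38, by gene identifier for 9 members and by symbol for DUSP14. RefSeq promoters matched 8 members and 3' UTRs matched 8. PECAM1 was not used here, and a further leukocyte marker is not reported here. Reads have no molecular identifiers. Intervals from counts pool the reads of a group's libraries, so they cover counting error only and leave out variation between libraries. No pair within a group was a duplicate, with a chi-square per degree of freedom of 5.37 in dex and 6.97 in etoh.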

Additional observations from a re-analysis of the deposited data

How the results depend on the processing

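DUSP1 stayed higher and DUSP4 lower past the threshold under every alternative that kept all 4 libraries. When a library was left out, their log2 fold changes were 1.29 to 1.57 and -1.71 to -1.62. Those fits keep a single library in a group and take their spread from the other group alone. Calls from them are therefore not equal to those of the main test. The number of members higher was 1 to 2 without a library, 2 being reached without dex replicate 1 with DUSP7. The number lower was 2 with upper-quartile factors and 2 with aligned library totals, with DUSP3 added. Sign changes met only members and relatives near 0: DUSP5 ranged from -0.18 to 0.11, DUSP10 from -0.29 to 0.24 and STYX from -0.10 to 0.056 without a library, and with the top transcript standing for its gene DUSP10 was at 0.088 and STYX at 0.12; the cause was not tested. Member transcripts higher numbered 1 to 2 and lower 2 to 3 without a library.

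Over all genes, 1684 were called, 1031 higher and 653 lower. DESeq2 called 1040, 653 higher and 387 lower, and an adjusted p of 0.01 left 995, 629 higher and 366 lower. Without a library the counts were 1111 to 1965 called, 705 to 1159 higher and 406 to 806 lower, the lowest without etoh replicate 1. Transcripts called numbered 2811, with 1310 by DESeq2, 1656 at an adjusted p of 0.01 and 1819 to 3393 without a library. With the replicate block, 1558 genes and 2 members were called. The numbers were not treated as pairs, since same-numbered libraries did not deviate together (correlation -0.09 over genes). Depth limits DUSP6, DUSP8 and DUSP10, which had under 60 reads in each library.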
